A study of Mus musculus with 12 samples.

Results

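The Toll-like receptors and the proteins closest to them, 10 genes of the 28999 in the deposited gene table, were followed in mouse bone marrow cells labelled LT-HSCs, short for long-term haematopoietic stem cells, which are rare cells that maintain all blood lineages. The genes were taken by symbol: the receptors Tlr1, Tlr2, Tlr3, Tlr4, Tlr6, Tlr7 and Tlr9, the co-receptor Cd14, the adaptor Myd88 and the inhibitory kinase-family member Irak3. All 10 symbols stood once in the table, and all 10 genes passed the filter on low counts. RNA sequencing gave 12 libraries, 3 in each of 4 groups: Trim47-/- mice that had received 5-fluorouracil (5-FU), with 10 days given in the labels, wild-type (WT) mice treated in the same way, untreated Trim47-/- mice and untreated WT mice. Trim47 belongs to the tripartite-motif family of ubiquitin ligases, and 5-FU is a drug that kills cycling cells, after which the stem cells rebuild the blood. The sources used here give no age, strain background or dose of 5-FU for these groups, nor the sorting markers or the deleted stretch of Trim47.

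Toll-like receptors recognise molecules of microbes and of damaged cells. Some sit at the cell surface and bind bacterial lipids and lipoproteins, whereas others sit in endosomes and bind nucleic acids. Apart from Tlr3, the receptors studied here signal through the adaptor Myd88 to kinases of the Irak family and on to NF-kB, and Irak3 restrains that step. Haematopoietic stem and progenitor cells are known to carry some of these receptors and to respond to their ligands by proliferating and by making myeloid cells, although the receptors are most abundant in mature monocytes, macrophages and dendritic cells.

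Total counts ran from 13919649 to 13953510 in Trim47-/- libraries after 5-FU, from 15111811 to 15151589 in WT libraries after 5-FU, from 20661120 to 20703198 in untreated Trim47-/- libraries and from 14828152 to 14885673 in untreated WT libraries. Levels are CPM, counts scaled to library size, and 1 count was worth between 0.0489 and 0.0725 CPM. No label ties a library to its own animal, so every p-value below is set against a spread between libraries that may be technical. For genes with 1 transcript and no overlap, replicates differed little beyond counting noise (median chi-square over degrees of freedom 0.778 to 0.837, where counting noise alone gives 0.693). All 10 genes of an LT-HSC marker list averaged at least 1 CPM in every group, among them Kit at 302, 459, 495 and 466 CPM in the order of groups given above. Others were low, with Slamf1 at 1.89 and Hoxb5 at 1.04 CPM in untreated WT cells. Genes of other marker lists were abundant in the same libraries. In that order, Mpo of the neutrophil list averaged 3285, 1831, 1731 and 1899 CPM. Flt3 of the conventional dendritic cell list averaged 445, 546, 915 and 711 CPM. It made up nearly all of that list's sum, where Itgax averaged 17.1, 16.9, 13.2 and 15.3 CPM. Zbtb46 averaged at most 2.95 CPM in any group, and Clec9a, Xcr1 and Cd209a were lower still. The purity of the cells was not tested. Trim47 itself averaged 11.3 CPM in Trim47-/- and 35.4 CPM in WT libraries after 5-FU, and 19.7 CPM in Trim47-/- and 24.4 CPM in WT libraries without treatment. That difference passed the test after 5-FU (log2 -1.64) and missed it without treatment (log2 -0.31), so the untreated groups are named as labelled and their directions rest on those labels. The responses to 5-FU and the difference between them use the same untreated groups, so they rest on those labels too.

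Tlr2, Cd14 and Tlr9, 3 of the 10 genes, shared the 2 groups that stood highest. By group mean each was first in Trim47-/- cells after 5-FU, second in untreated WT cells and lower in the others, where WT cells after 5-FU stood above untreated Trim47-/- cells for Cd14 and Tlr9 and below them for Tlr2. Relative to WT, the libraries labelled Trim47-/- therefore held less of their RNA without treatment and more after 5-FU. Irak3 went the other way after 5-FU, Myd88 and Tlr1 were higher after 5-FU in both genotypes, and Tlr6, Tlr4 and Tlr7 passed no test. In bulk RNA, fewer cells of a type and less RNA per cell cannot be told apart, which holds for every level below.

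**Figure D1:**
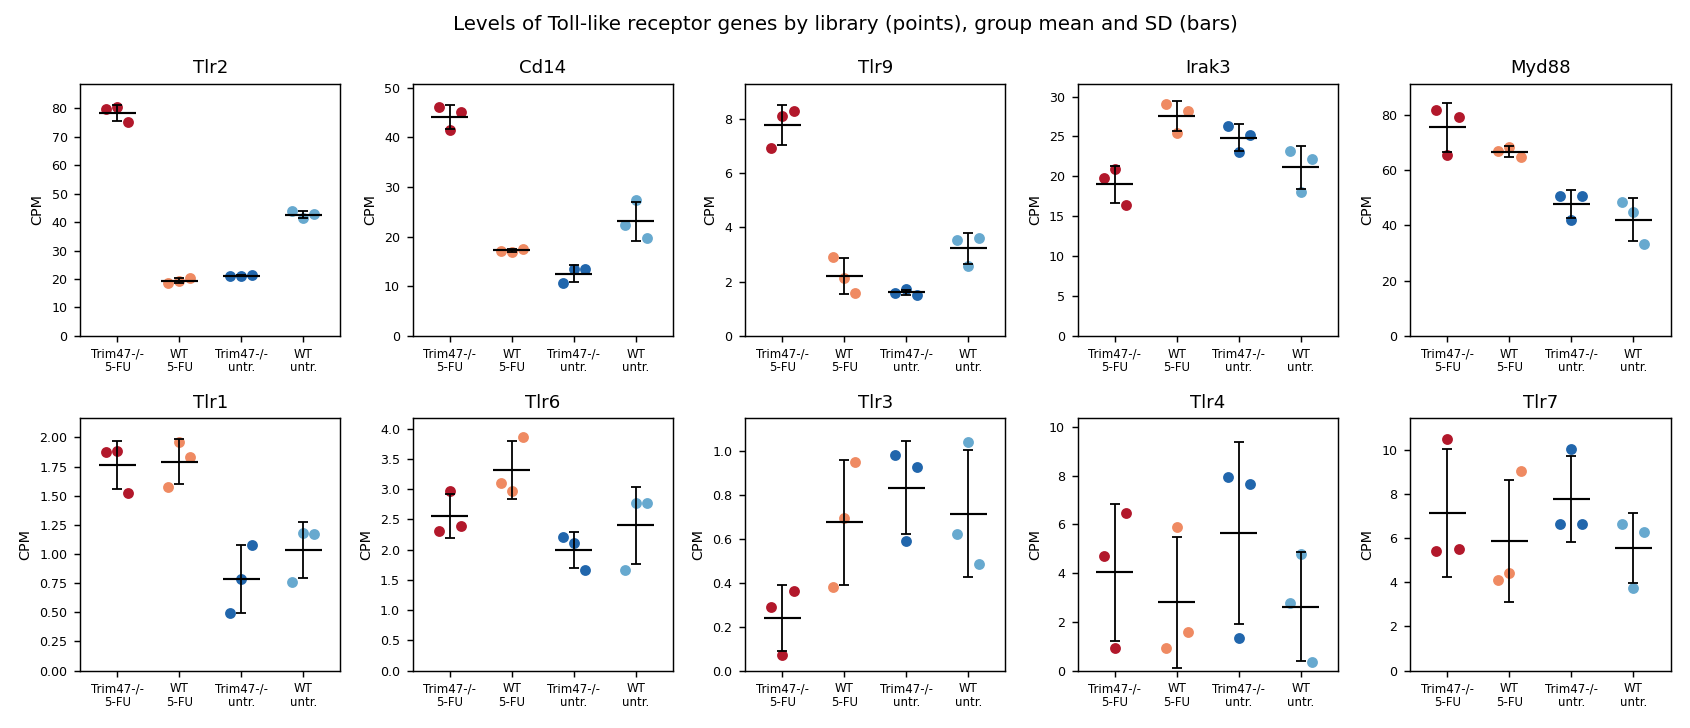
Level of each of the 10 genes in CPM (vertical axes, each starting at 0) in the 12 libraries, with a bar for the group mean and whiskers for the SD (n = 3). Tlr2, Cd14 and Tlr9 stand highest in Trim47-/- libraries after 5-FU, whereas Tlr4 and Tlr7 spread widely within groups.

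Tlr2 (ENSMUSG00000027995; GRCm38 chr3:83836272-83841767, minus strand, 1 annotated transcript) encodes the surface receptor for bacterial lipoproteins. In Trim47-/- libraries after 5-FU it had 79.7, 80.6 and 75.3 CPM, against 18.6, 19.2 and 20.3 CPM in WT libraries after 5-FU. Without treatment it had 21.2, 20.9 and 21.3 CPM in Trim47-/- libraries and 43.9, 41.3 and 42.7 CPM in WT libraries. The treated Trim47-/- libraries stood above all others and the untreated WT libraries above the remaining ones, with no overlap in any of the pairs of groups compared. After 5-FU, Tlr2 was 4.05-fold higher in Trim47-/- than in WT cells (log2 2.02, SE 0.0467, adjusted p = 4.92e-11, 3 of 3 libraries above all WT libraries; edgeR's quasi-likelihood test with Benjamini-Hochberg adjustment over 16319 genes, used for every adjusted p below). Without treatment it was lower in Trim47-/- cells by log2 -1.01 (SE 0.0458, adjusted p = 3.91e-08). The response to the drug had opposite signs: 3.71-fold higher after 5-FU in Trim47-/- cells (log2 1.89, SE 0.0458, adjusted p = 3.14e-11) and 0.454 times the untreated level in WT cells (log2 -1.14, SE 0.0467, adjusted p = 4.16e-09). The difference between these responses, Trim47-/- minus WT and called the interaction below, was log2 3.03 (SE 0.0654, adjusted p = 2.47e-11).

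Promoter bases are shown for Tlr2 and Tlr9, the receptors that moved together with the largest interactions. RefSeq's promoter table (GRCm38.p6) held an entry for 7 of the 10 genes, and Tlr4, Tlr7 and Cd14 had none. For Tlr9 the 250 bases before the start are given, chr9:106222348-106222597, plus strand. For Tlr2 the start in that table, 83841608, lies 159 bases inside the gene as the deposited table and GENCODE place it, whose start is 83841767. Only the motif match ahead of both starts is therefore given, with 9 bases on each side, chr3:83841762-83841790, minus strand. Both run 5′ to 3′ on the gene's strand, and capitals mark matches, on either strand, to any of 5 motifs searched.
Tlr2: aggacacctGGGGAATTCCCacacggagc
Tlr9: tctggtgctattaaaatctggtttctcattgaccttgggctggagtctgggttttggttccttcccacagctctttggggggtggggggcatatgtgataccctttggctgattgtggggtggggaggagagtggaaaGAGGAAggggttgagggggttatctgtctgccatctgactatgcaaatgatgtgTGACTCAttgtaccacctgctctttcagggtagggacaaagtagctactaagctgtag
The motifs were 2 forms for NF-kB, GGG and TTTCC with 2 bases between them and the looser GGG and CC with 5 bases between them, which holds the first form, the core bound by the myeloid factor PU.1 (GAGGAA), the AP-1 motif TGANTCA and the interferon-stimulated response element, which is GAAA and again GAAA with 2 bases between. Of 32851 promoters of 300 bases, 1.6%, 50.8%, 28.3%, 7.8% and 3.4% held them in that order. The capitals in Tlr2 are matches to the looser NF-kB form on both strands, 4 to 14 bases before the gene's start at 83841767. In Tlr9 the capitals are a PU.1 core from -112 to -107 and an AP-1 motif from -58 to -52, counted from the annotated start at 0. Among the 7 genes with an entry, the first NF-kB form was found only in Tlr3. The looser form was also found in Tlr3, Tlr6 and Irak3, and the PU.1 core in Tlr1 and Irak3. The interferon-stimulated element was found in Tlr6 and Myd88, and the AP-1 motif in Tlr9 alone. The NF-kB and PU.1 motifs were thus not particular to Tlr2 and Tlr9. A match says that the letters are present and does not show binding.

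Tlr1 and Tlr6 encode the partners with which Tlr2 forms heterodimers that discriminate between kinds of lipoprotein. Tlr1 (ENSMUSG00000044827; chr5:64924679-64933563, minus strand) had 1.88, 1.88 and 1.52 CPM in Trim47-/- libraries and 1.58, 1.96 and 1.83 CPM in WT libraries after 5-FU, and 0.490, 0.786 and 1.08 CPM in Trim47-/- libraries and 0.761, 1.18 and 1.17 CPM in WT libraries without treatment. The genotypes overlapped in both states, while every treated library stood above every untreated one. The 5-FU difference was log2 1.16 in Trim47-/- cells (SE 0.256, adjusted p = 0.00213) and log2 0.78 in WT cells (SE 0.254, adjusted p = 0.0233), and the interaction of 0.38 did not pass (adjusted p = 0.408). The call in WT cells was lost in DESeq2's test (adjusted p = 0.072) and on leaving out WT 5-FU replicate 2 (0.0700), WT 5-FU replicate 3 (0.0577) or WT untreated replicate 1 (0.0924). Tlr6 (ENSMUSG00000051498; chr5:64952031-64960097, minus strand) averaged 2.56 ± 0.359 CPM in Trim47-/- and 3.31 ± 0.480 CPM in WT cells after 5-FU, and 1.99 ± 0.291 CPM in Trim47-/- and 2.40 ± 0.640 CPM in WT cells without treatment (SD, n = 3 each). No comparison of Tlr6 passed, with adjusted p of 0.0754 to 0.786 and the largest difference, log2 0.46, for 5-FU in WT cells. The partners thus did not show the order of groups seen for Tlr2.

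Tlr1 and Tlr6 are neighbours and near-identical over part of their coding sequence, so the way reads were assigned can move counts between them. Their longest coding transcripts, of 3025 and 3677 bases in GENCODE M21, share an identical run of 229 bases, and 8.85% of the 100-base windows of Tlr1 occur in Tlr6. No other pair of the 10 genes shared more than 18 bases in a row. The run is shown in capitals with 15 bases on each side, 5′ to 3′ on the minus strand, for Tlr1 at chr5:64925522-64925780 and for Tlr6 at chr5:64953813-64954071, both inside coding exons of GRCm38.
Tlr1: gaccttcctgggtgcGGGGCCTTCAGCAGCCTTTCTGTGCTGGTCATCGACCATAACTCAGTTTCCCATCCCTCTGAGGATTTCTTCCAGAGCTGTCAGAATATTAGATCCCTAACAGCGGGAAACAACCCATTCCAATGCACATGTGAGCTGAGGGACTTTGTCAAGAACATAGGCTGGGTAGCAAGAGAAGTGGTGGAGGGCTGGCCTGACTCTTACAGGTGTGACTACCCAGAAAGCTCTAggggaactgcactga
Tlr6: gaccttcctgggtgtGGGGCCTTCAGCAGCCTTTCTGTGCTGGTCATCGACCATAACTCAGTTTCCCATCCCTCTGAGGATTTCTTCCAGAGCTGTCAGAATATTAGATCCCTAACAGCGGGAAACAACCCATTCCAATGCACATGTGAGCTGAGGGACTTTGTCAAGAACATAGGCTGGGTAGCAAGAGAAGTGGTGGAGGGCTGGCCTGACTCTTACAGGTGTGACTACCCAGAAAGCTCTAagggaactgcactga
With the counts of both genes summed, a setting added after seeing the data, the pair was higher after 5-FU by log2 0.64 in Trim47-/- cells (SE 0.169, adjusted p = 0.00668) and by log2 0.57 in WT cells (SE 0.166, adjusted p = 0.0138). The genotype difference of the sum did not pass after 5-FU (log2 -0.24, adjusted p = 0.236) or without treatment (log2 -0.31, adjusted p = 0.206).

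Tlr4 (ENSMUSG00000039005; chr4:66827584-66930284, plus strand, 4 transcripts) encodes the receptor for bacterial lipopolysaccharide. It had 65, 13 and 89 counts in Trim47-/- libraries and 15, 93 and 25 counts in WT libraries after 5-FU, and 162, 27 and 157 counts in Trim47-/- libraries and 40, 69 and 5 counts in WT libraries without treatment. As CPM these were 4.69, 0.942 and 6.45 against 0.947, 5.88 and 1.58 after 5-FU, and 7.94, 1.33 and 7.67 against 2.77, 4.78 and 0.346 without treatment, with Trim47-/- first in each pair. Within a group the highest library exceeded the lowest by 6.85-fold, 6.21-fold, 5.99-fold and 13.8-fold in that order of groups, and all groups overlapped. Its chi-square over degrees of freedom was 27.2 to 50.8 in Trim47-/- groups and 27.1 to 40.8 in WT groups. The gene's dispersion stood at percentile 99.8 among 1000 genes of like level. None of its differences passed (log2 -0.58 to 1.10, SE 0.814 to 1.26, adjusted p 0.368 to 0.949). With standard errors of that size, even differences of 2-fold in either direction lay within the spread between libraries.

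Cd14 (ENSMUSG00000051439; chr18:36725067-36726798, minus strand, 2 transcripts) encodes the surface protein that hands lipopolysaccharide and lipopeptides to the receptors and marks monocytes and macrophages. It had 46.1, 41.4 and 45.0 CPM in Trim47-/- libraries and 17.1, 17.0 and 17.6 CPM in WT libraries after 5-FU. Without treatment it had 10.6, 13.5 and 13.5 CPM in Trim47-/- libraries and 22.3, 27.3 and 19.7 CPM in WT libraries. No pair of groups compared overlapped. Cd14 was 2.57-fold higher in Trim47-/- than in WT cells after 5-FU (log2 1.36, SE 0.117, adjusted p = 2.00e-06) and lower in Trim47-/- cells without treatment (log2 -0.88, SE 0.120, adjusted p = 0.000213). After 5-FU it was 3.52-fold higher in Trim47-/- cells (log2 1.82, SE 0.119, adjusted p = 1.32e-07) and lower in WT cells (log2 -0.42, SE 0.119, adjusted p = 0.0115, 3 of 3 libraries below all untreated ones). Its interaction was log2 2.24 (SE 0.168, adjusted p = 6.24e-07).

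Tlr9 (ENSMUSG00000045322; chr9:106222598-106226883, plus strand, 1 transcript) encodes the endosomal receptor for unmethylated CpG DNA, best known from plasmacytoid dendritic cells and B cells. It had 6.93, 8.11 and 8.27 CPM in Trim47-/- libraries and 2.91, 2.15 and 1.58 CPM in WT libraries after 5-FU, against 1.57, 1.72 and 1.52 CPM in Trim47-/- libraries and 3.53, 2.56 and 3.59 CPM in WT libraries without treatment. The treated Trim47-/- libraries stood above all others, the untreated Trim47-/- libraries stood below the untreated WT libraries, and the WT groups overlapped each other. After 5-FU, Tlr9 was 3.50-fold higher in Trim47-/- than in WT cells (log2 1.81, SE 0.184, adjusted p = 7.38e-06), and without treatment it was lower in Trim47-/- cells (log2 -1.01, SE 0.206, adjusted p = 0.00308). In Trim47-/- cells it was 4.84-fold higher after 5-FU than without treatment (log2 2.27, SE 0.185, adjusted p = 8.51e-07). Its interaction was log2 2.82 (SE 0.276, adjusted p = 5.64e-06). In WT cells the response of log2 -0.54 (SE 0.204, adjusted p = 0.0439) was a narrow call. It was lost in DESeq2's test (0.0712), with no filter on low counts (0.0864), with the replicate block (0.0677) and with only the 6 libraries compared (0.0984, an adjusted p as in the others). It was also lost without WT 5-FU replicate 2 or 3 (adjusted p 0.101 and 0.153, log2 -0.35 in the second case), WT untreated replicate 1 or 3 (0.125 and 0.134), Trim47-/- 5-FU replicate 2 or 3 (0.0554 and 0.0539) or any 1 of the untreated Trim47-/- replicates (0.0540 to 0.0567).

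Tlr3 (ENSMUSG00000031639), the endosomal receptor for double-stranded RNA that signals through Ticam1 and not Myd88, was near the lower limit of detection. It had 4, 1 and 5 counts in Trim47-/- libraries and 6, 11 and 15 counts in WT libraries after 5-FU, and 20, 12 and 19 counts in Trim47-/- libraries and 9, 15 and 7 counts in WT libraries without treatment. These averaged 0.241 ± 0.151 CPM and 0.675 ± 0.286 CPM after 5-FU, and 0.833 ± 0.213 CPM and 0.715 ± 0.289 CPM without treatment, with Trim47-/- first in each pair (SD, n = 3 each). The treated Trim47-/- libraries were the lowest and did not overlap any other group. Tlr3 was lower in Trim47-/- cells than in WT cells after 5-FU (log2 -1.45, SE 0.549, adjusted p = 0.0424), and lower after 5-FU than without treatment in Trim47-/- cells (log2 -1.76, SE 0.509, adjusted p = 0.0108, 0.00836 to 0.0458 over its alternatives). The first of these calls was lost in DESeq2's test (adjusted p = 0.0576), with no filter (0.0712) and with the replicate block (0.0657). Leaving out Trim47-/- 5-FU replicate 1 or 2 gave adjusted p of 0.0717 and 0.142, WT 5-FU replicate 2 or 3 gave 0.0843 and 0.143, untreated Trim47-/- replicate 1 or 3 gave 0.0508 and 0.0534, and WT untreated replicate 1 gave 0.0537. The interaction missed the threshold (log2 -1.67, SE 0.679, adjusted p = 0.0564). It passed without Trim47-/- 5-FU replicate 3 (log2 -2.07, adjusted p = 0.0487), WT 5-FU replicate 1 (-1.96, 0.0273), untreated Trim47-/- replicate 2 (-1.87, 0.0413) or WT untreated replicate 2 (-2.04, 0.0301). Tlr3 (chr8:45395665-45411080, minus strand) shares 381 exonic bases with the antisense gene Gm45542, and no source used here states the strand setting of the counting.

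Tlr7 (ENSMUSG00000044583; chrX:167304929-167330558, minus strand, 6 transcripts), the endosomal receptor for single-stranded RNA, had 5.42, 10.5 and 5.51 CPM in Trim47-/- libraries and 4.11, 4.43 and 9.05 CPM in WT libraries after 5-FU. Without treatment it had 6.62, 10.0 and 6.65 CPM in Trim47-/- libraries and 6.64, 3.74 and 6.29 CPM in WT libraries. In all 4 groups 1 library stood apart from the others, and all groups compared overlapped. No difference of Tlr7 passed (log2 -0.20 to 0.48, adjusted p 0.337 to 0.886). Its dispersion stood at percentile 97 among genes of like level, second to Tlr4. Myd88, Cd14 and Irak3 followed at percentiles 88.8, 83.8 and 82.1, whereas Tlr2 stood at percentile 17.1.

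Myd88 (ENSMUSG00000032508; chr9:119335934-119341411, minus strand), the adaptor that links the receptors to the Irak kinases, differed with the drug and not detectably with the genotype. It had 81.8, 65.4 and 79.3 CPM in Trim47-/- libraries and 66.8, 68.4 and 64.7 CPM in WT libraries after 5-FU. Without treatment it had 50.5, 41.9 and 50.7 CPM in Trim47-/- libraries and 48.3, 44.7 and 33.2 CPM in WT libraries. Every treated library stood above every untreated one, and the genotypes overlapped in both states. After 5-FU, Myd88 was 1.58-fold higher in Trim47-/- cells (log2 0.66, SE 0.128, adjusted p = 0.000831) and higher by log2 0.66 in WT cells (SE 0.130, adjusted p = 0.00121). The genotype differences were log2 0.18 after 5-FU (SE 0.127, adjusted p = 0.257) and log2 0.18 without treatment (SE 0.130, adjusted p = 0.318). The interaction was near 0 with an SE of 0.181 (adjusted p = 0.992). Myd88 shares 290 exonic bases with Acaa1a on the opposite strand, so its counts carry the same doubt over strand as those of Tlr3.

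Irak3 (ENSMUSG00000020227), known as IRAK-M, is the member of the Irak family that damps signalling below Myd88 and is best known from monocytes and macrophages. It had 19.8, 20.9 and 16.4 CPM in Trim47-/- libraries and 29.1, 25.5 and 28.2 CPM in WT libraries after 5-FU. Without treatment it had 26.3, 23 and 25.2 CPM in Trim47-/- libraries and 23.2, 18.1 and 22.1 CPM in WT libraries. The treated groups did not overlap, and the untreated groups overlapped slightly. Irak3 was lower in Trim47-/- than in WT cells after 5-FU (log2 -0.54, SE 0.110, adjusted p = 0.00148), and its untreated difference of log2 0.23 did not pass (SE 0.108, adjusted p = 0.124). After 5-FU it was lower in Trim47-/- cells (log2 -0.39, SE 0.109, adjusted p = 0.00936) and higher in WT cells (log2 0.38, SE 0.109, adjusted p = 0.0118). The interaction was log2 -0.77 (SE 0.154, adjusted p = 0.00127), opposite in sign to that of Tlr2, Cd14 and Tlr9. The gene lies at chr10:120141648-120202130 on the minus strand and shares 192 exonic bases with Tmbim4 on the opposite strand.

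**Figure D2:**
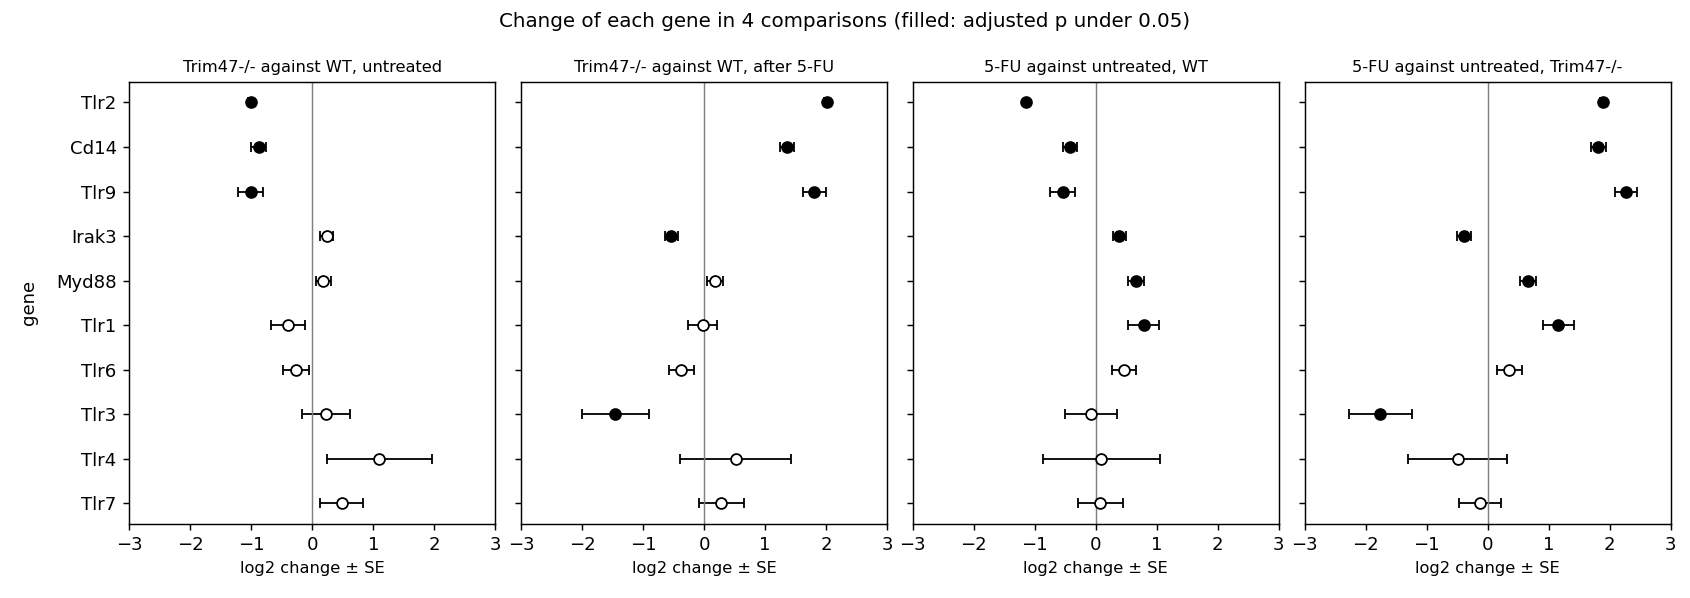
Log2 change of the 10 genes (rows) in the comparisons of genotype and of 5-FU (panels), with bars of 1 SE from edgeR's fit and filled points for an adjusted p under 0.05. Tlr2, Cd14 and Tlr9 lie right of 0 for Trim47-/- against WT after 5-FU (log2 2.02, 1.36 and 1.81) and left of 0 for the same comparison without treatment.

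Counted over the 10 genes, 3 were higher and 2 lower in Trim47-/- than in WT cells after 5-FU (background over 16319 genes tested: 27.2% higher and 27.6% lower, 54.7% in all), and 6 had groups that did not overlap (61.3% of all genes). Without treatment, 0 were higher and 3 lower in Trim47-/- cells (background 17.6% higher and 15.4% lower, 33% in all), and those 3 had groups that did not overlap (47.9% of all genes). For 5-FU against untreated in Trim47-/- cells, 5 were higher and 2 lower (background 29.6% higher and 30.8% lower, 60.5% in all), with 8 that did not overlap (66.6% of all genes). For 5-FU in WT cells, 3 were higher and 3 lower (background 25.2% higher and 25.4% lower, 50.6% in all), with 6 that did not overlap (58.9% of all genes). The interaction passed with a positive sign for 3 and a negative sign for 1 (background 26.4% positive and 28.5% negative, 54.9% in all). The shares of the 10 genes that passed therefore lay near those of all genes, and the count of calls says nothing particular about the receptors. The median log2 change of the 10 genes was 0.23 after 5-FU and -0.04 without treatment for the genotype, and 0.51 in Trim47-/- cells and 0.08 in WT cells for the drug, where the medians over all genes lay between -0.01 and 0.03. The comparisons of genotype and of drug share libraries with each other, so their counts are not independent.

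Levels can be set between genes only per length. The deposited FPKM divided by a length longer than the annotated exons for genes with several transcripts, from 1.22 times the exonic bases for Tlr4 to 2.82 times for Tlr7, and by exactly those bases for Tlr2 and Tlr9, which have 1 transcript. Levels between genes are therefore given as CPM per kilobase of exons in GENCODE M21, a scale chosen after that was seen. In Trim47-/- cells after 5-FU the order of means was Myd88 (29.3), Tlr2 (26.1), Cd14 (25.5), Irak3 (5.17), Tlr9 (2.23), Tlr7 (1.75), Tlr4 (0.725), Tlr6 (0.686), Tlr1 (0.526) and Tlr3 (0.0463). In WT cells after 5-FU it was Myd88 (25.9), Cd14 (9.94), Irak3 (7.50), Tlr2 (6.43), Tlr7 (1.44), Tlr6 (0.888), Tlr9 (0.636), Tlr1 (0.535), Tlr4 (0.505) and Tlr3 (0.130). Myd88 led and Tlr3 was last in both, while Tlr2 lay among the leading 3 in Trim47-/- cells and below Irak3 in WT cells. Untreated Trim47-/- cells had Myd88 first (18.5), then Cd14 (7.24), Tlr2 (7.02) and Irak3 (6.76), and untreated WT cells had Myd88 (16.3), Tlr2 (14.1), Cd14 (13.3) and Irak3 (5.75). The other 6 receptors ran from 0.160 to 1.90 in untreated Trim47-/- and from 0.137 to 1.36 in untreated WT cells, with Tlr7 highest and Tlr3 lowest in both. Libraries of neighbours overlapped among Myd88, Tlr2 and Cd14, for Tlr9 with Tlr7 and for Tlr4 with Tlr6 in treated Trim47-/- cells, and from Tlr7 down to Tlr3 in treated WT cells. Without treatment they overlapped among Cd14, Tlr2 and Irak3, among Tlr4, Tlr6 and Tlr9 and for Tlr1 with Tlr3 in Trim47-/- cells, and among Myd88, Tlr2 and Cd14 and from Tlr7 down to Tlr1 in WT cells. By the deposited FPKM, Tlr2 came before Myd88 in treated Trim47-/- cells (25.8 against 16.2) and in untreated WT cells (13.8 against 8.86), so the order of these genes depends on the length used.

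**Figure D3:**
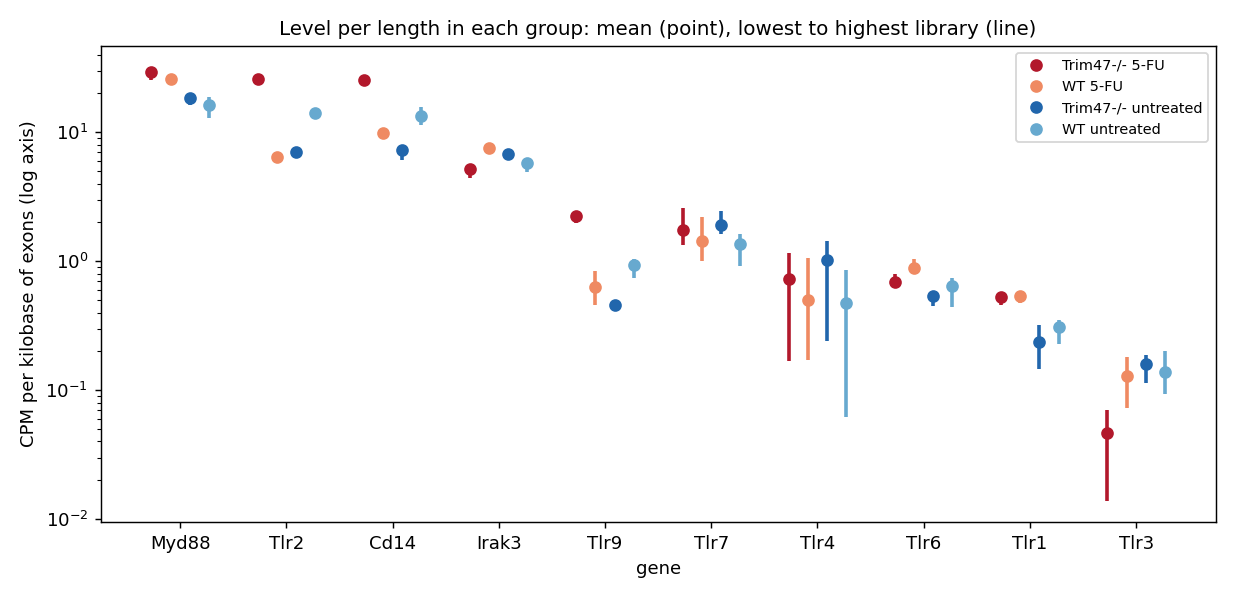
CPM per kilobase of exons of the 10 genes (vertical axis, logarithmic) in the 4 groups, with a point for the group mean and a line from the lowest to the highest library. Myd88 has the highest mean in every group, from 16.3 to 29.3, while Tlr3 has the lowest, from 0.0463 to 0.160.

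The genes whose pattern over the 12 libraries was most like that of a receptor were found by the root mean square difference of log2 CPM, each gene centred on its own mean, among about 10366 genes that averaged 5 CPM or more. For Tlr2 they were Plec (0.146), Slc2a6 (0.194) and Trem1 (0.208), the last a receptor of myeloid cells. For Cd14 they were F13a1 (0.135), which is abundant in monocytes, Stx11 (0.137) and Oaf (0.172). Tlr9 was most like Trim36 (0.199), F13a1 (0.221) and Slfn2 (0.223), so F13a1 stood among the nearest genes for both Cd14 and Tlr9. For Irak3 they were Nadsyn1 (0.0955), Wbp1 (0.0962) and Kdm4a (0.0963), and for Myd88 Inka1 (0.120), Adam9 (0.135) and Ostm1 (0.135). The nearest genes were Tpm1 for Tlr1 (0.159), Pnp for Tlr6 (0.146), Rubcn for Tlr3 (0.194) and Camk2g for Tlr7 (0.220). Tlr4 had no close match, its nearest gene, Zbtb18, lying 0.756 away.

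The rest of the pathway was read from 57 further genes, of which 52 could be tested. In Trim47-/- against WT cells after 5-FU, 22 of the 52 were higher and 17 lower, where 27.2% of all genes tested were higher and 27.6% lower. Without treatment 6 were higher and 20 lower, where 17.6% of all genes were higher and 15.4% lower. For 5-FU in Trim47-/- cells, 19 were higher and 21 lower (29.6% and 30.8% of all genes), and for 5-FU in WT cells, 10 were higher and 26 lower (25.2% and 25.4%). The median log2 change was 0.09, -0.07, -0.06 and -0.15 in these comparisons. The interaction passed for 25 genes with a positive and 14 with a negative sign, with a median of 0.16, where 26.4% of all genes had a positive and 28.5% a negative one.

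Among other receptors, Tlr13, which binds bacterial ribosomal RNA in mice, was also highest in treated Trim47-/- cells, with 4.01 CPM in Trim47-/- and 1.29 CPM in WT cells after 5-FU, and 1.80 CPM in Trim47-/- and 3.16 CPM in WT cells without treatment. Of 3 such receptors tested, Tlr13 and Tlr8 were higher in Trim47-/- cells after 5-FU (log2 1.63 and 1.87), and Tlr13 alone was lower without treatment (log2 -0.81, adjusted p = 0.00522). Tlr8 was near the lower limit of detection, at 0.869 CPM in Trim47-/- and 0.232 CPM in WT cells after 5-FU. Over all genes tested, 27.2% were higher and 27.6% lower in Trim47-/- cells after 5-FU, and 17.6% and 15.4% without treatment. Of 7 partners and chaperones, 4 were higher and 0 lower in Trim47-/- cells after 5-FU, and 1 was higher and 3 lower without treatment. They included Ly86, the partner of the Toll-like protein Cd180 (log2 1.62 after 5-FU and -1.24 without treatment), Unc93b1, which carries Tlr3, Tlr7 and Tlr9 to endosomes (0.39 and -0.23), and Hsp90b1, the chaperone that folds the receptors (0.46 and -0.20). All 6 of these values passed. Among 4 other adaptors, Pik3ap1, which links the receptors to phosphoinositide 3-kinase, averaged 340 CPM in Trim47-/- and 132 CPM in WT cells after 5-FU (log2 1.37), and 168 CPM in Trim47-/- and 272 CPM in WT cells without treatment (log2 -0.69). Tirap, which bridges Myd88 to Tlr2 and Tlr4, was higher in Trim47-/- cells after 5-FU by log2 0.45. Ticam2 was lower there (log2 -0.29, adjusted p = 0.0144) and Ticam1 did not pass. Of these 4 adaptors, 2 were thus higher and 1 lower after 5-FU, and 1 was higher and 1 lower without treatment.

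Below the adaptors, 6 of 16 signalling enzymes were higher and 4 lower in Trim47-/- cells after 5-FU, and 1 was higher and 4 lower without treatment. The shares over all genes tested were 27.2% higher and 27.6% lower after 5-FU, and 17.6% and 15.4% without treatment. Irak2, a kinase recruited by Myd88, averaged 43.1 CPM in Trim47-/- and 14.2 CPM in WT cells after 5-FU (log2 1.60), and its interaction was log2 2.23 (adjusted p = 1.46e-05). Irak4, the first kinase to join Myd88, went the opposite way, with log2 -0.37 after 5-FU and 0.24 without treatment. The ubiquitin ligase Traf6 and the kinase Chuk were higher in Trim47-/- cells after 5-FU (log2 0.48 and 0.34) and lower without treatment (log2 -0.13 and -0.29). Of 8 inhibitors, 2 were higher and 6 lower in Trim47-/- cells after 5-FU, and 2 were higher and 1 lower without treatment. Sigirr, a receptor that blocks Toll-like and interleukin-1 receptor signalling, had the same signs as Irak3 (log2 -0.55 after 5-FU and 0.27 without treatment, both passed), whereas Tollip, which binds Irak1, and Tnip1, a partner of the deubiquitinase Tnfaip3, were higher in Trim47-/- cells after 5-FU (log2 0.37 and 0.55).

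Of 14 early target genes tested, RNA that Toll-like receptor signalling is known to induce within hours, 6 were higher and 6 lower in Trim47-/- than in WT cells after 5-FU, with a median of log2 0.14 (27.2% of all genes higher and 27.6% lower). Without treatment, 1 was higher and 10 lower in Trim47-/- cells, with a median of -0.52 (17.6% of all genes higher and 15.4% lower). For 5-FU in Trim47-/- cells, 2 were higher and 10 lower (median -0.71, with 30.8% of all genes lower), and in WT cells 1 was higher and 13 lower (median -1.44, with 25.4% of all genes lower). The interaction passed with a positive sign for 10 of the 14 and a negative sign for 4 (median 0.69, with 26.4% of all genes positive). Acod1, which makes itaconate in macrophages, had the signs of Tlr2 in both comparisons of genotype (log2 2.93 after 5-FU and -1.96 without treatment). Zc3h12a, an RNase that destroys inflammatory mRNA, and Nfkbia, the NF-kB inhibitor, were also higher in Trim47-/- cells after 5-FU (log2 0.87 and 0.48). Socs3, an inhibitor of cytokine signalling, was lower (log2 -1.28, adjusted p = 9.27e-13). The chemokine gene Cxcl2 was lower after 5-FU in both genotypes, by log2 -2.08 in Trim47-/- and -2.31 in WT cells. In Trim47-/- cells, then, most early targets were lower after the drug while Tlr2 was higher, and the sign of the interaction was that of Tlr2 for 10 of 14.

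**Figure D4:**
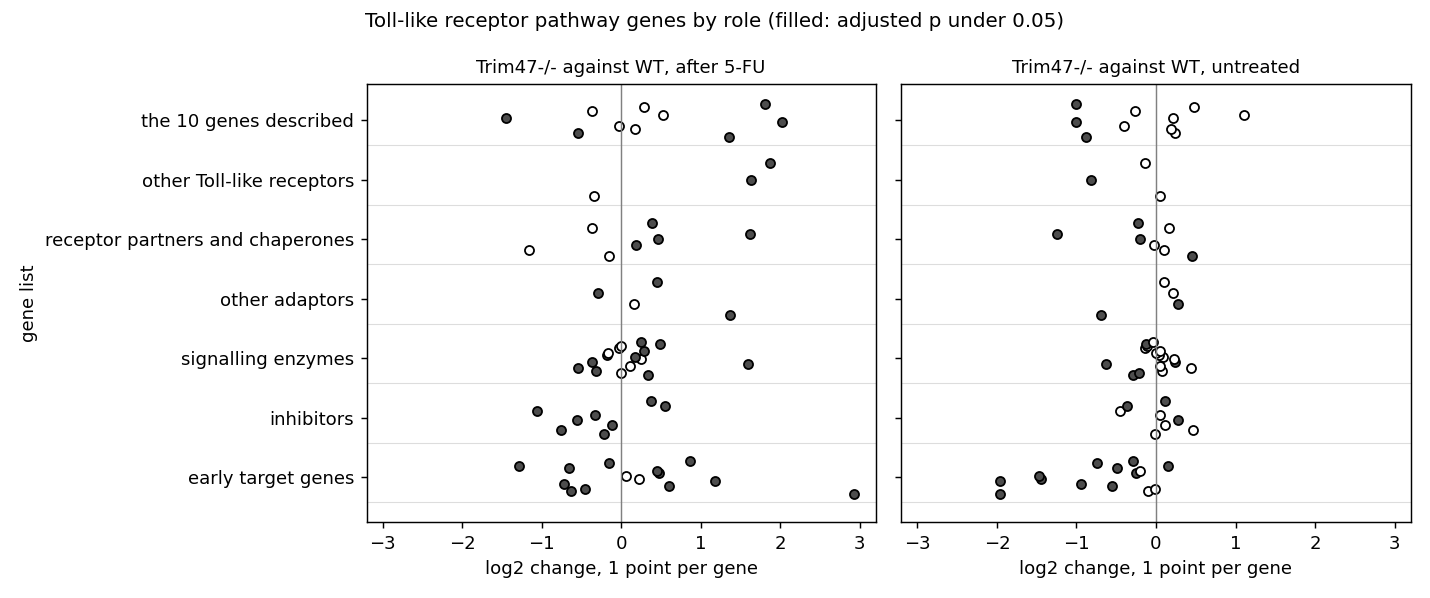
Log2 change of the pathway genes tested, grouped by role (rows), for Trim47-/- against WT after 5-FU and without treatment, with 1 point per gene and filled points for an adjusted p under 0.05. Partners that passed lie right of 0 after 5-FU (4 higher, 0 lower), and early targets that passed lie mostly left of 0 without treatment (1 higher, 10 lower). Over all genes, 27.2% were higher and 27.6% lower after 5-FU, and 17.6% and 15.4% without treatment.

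Summed markers of monocytes and macrophages had the signs of Tlr2, Cd14 and Tlr9 in the comparisons of genotype, and followed them less in the 5-FU response of WT cells. The list of 10 such genes summed to 1010 to 1043 CPM in Trim47-/- and 578 to 592 CPM in WT libraries after 5-FU, and to 447 to 477 CPM in Trim47-/- and 621 to 627 CPM in WT libraries without treatment. Of the 10 markers, 9 were higher and 0 lower in Trim47-/- cells after 5-FU, and 0 were higher and 5 lower without treatment. For this and the lists below, the shares over all genes were 27.2% higher and 27.6% lower after 5-FU. Without treatment they were 17.6% higher and 15.4% lower. The log2 ratio of the summed levels, Trim47-/- over WT, was 0.82 after 5-FU and -0.43 without treatment, against 2.02 and -1.01 for Tlr2. For 5-FU over untreated, that ratio was 1.16 in Trim47-/- cells and -0.09 in WT cells, against 1.89 and -1.14 for Tlr2. In WT cells 2 of the 10 markers were higher and 4 lower after 5-FU (25.2% and 25.4% of all genes). In Trim47-/- cells 9 were higher and 0 lower (29.6% and 30.8% of all genes). Csf1r, the receptor that defines the lineage, averaged 135 CPM in Trim47-/- and 57.5 CPM in WT cells after 5-FU. Neutrophil markers summed to 6478 to 6862 CPM in treated Trim47-/- libraries and averaged 4094 CPM in treated WT, 3258 CPM in untreated Trim47-/- and 3391 CPM in untreated WT libraries. All 10 neutrophil markers were higher in Trim47-/- than in WT cells after 5-FU, and without treatment 6 were higher and 3 lower. The LT-HSC markers ran opposite to Tlr2 after 5-FU, summing to 638 to 713 CPM in Trim47-/- and 1036 to 1193 CPM in WT libraries, with 0 of 10 higher and 9 lower. Without treatment they summed to 1174 to 1290 CPM in Trim47-/- and 1059 to 1155 CPM in WT libraries. B cell markers, of a lineage known for Tlr9, had sums averaging 18.9 CPM in Trim47-/- and 23.2 CPM in WT cells after 5-FU, with 0 of 5 tested higher and 4 lower. Most of those sums was Cd79b (17.8 CPM in Trim47-/- and 19.5 CPM in WT cells), which did not pass (adjusted p = 0.254). The defining marker Ms4a1 was too low to test, at 0 in treated Trim47-/- and 0.211 CPM in treated WT libraries. Of 5 plasmacytoid dendritic cell markers tested, 1 was higher and 1 lower in Trim47-/- cells after 5-FU, and 0 were higher and 3 lower without treatment. Their sum after 5-FU rested on Bst2 (104 CPM in Trim47-/- and 56.9 CPM in WT cells) and Tcf4 (140 CPM in Trim47-/- and 170 CPM in WT cells), while Siglech stood at 0.868 and 0.696 CPM in those groups and Klk1 at 0 in both. The part of these cell types in the results for the receptors was not tested.

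**Figure D5:**
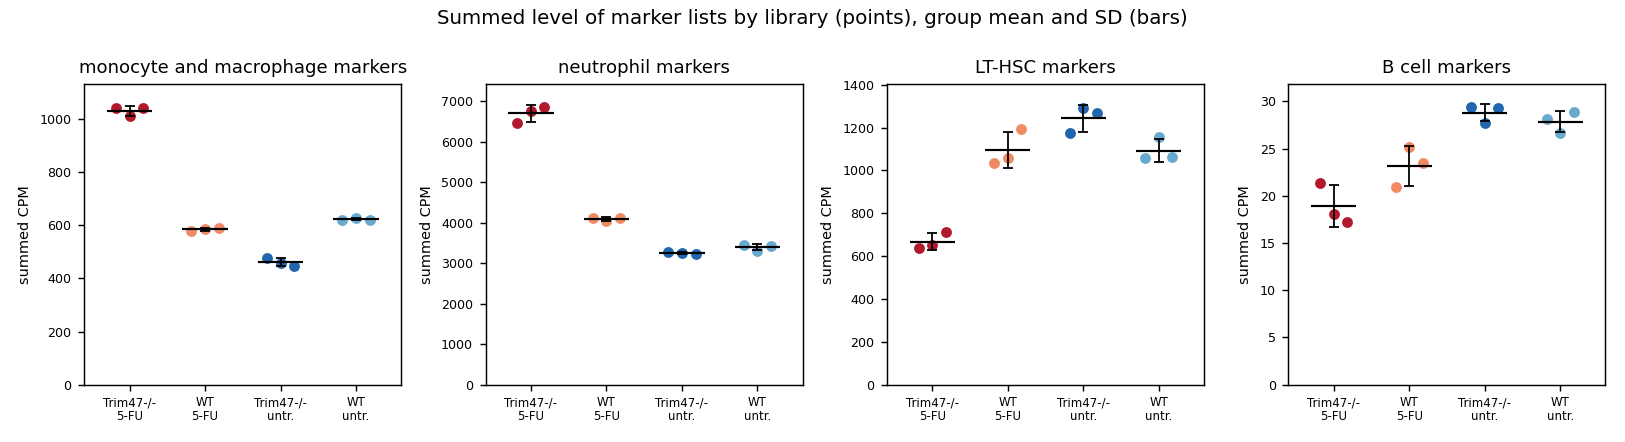
Summed CPM (vertical axes, starting at 0) of marker lists for monocytes and macrophages, neutrophils, LT-HSCs and B cells in the 12 libraries, with group mean and SD (n = 3). Monocyte and macrophage markers stand at 1010 to 1043 CPM in treated Trim47-/- libraries, above the other 3 groups, and LT-HSC markers are lowest there.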

How the data were processed

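The deposited table held whole-number read counts per gene for 12 libraries, not normalised, and FPKM values computed by the authors, per the file headers. Poly-A RNA had been sequenced as stranded paired-end libraries on an Illumina NovaSeq, per the labels' protocols. The build GRCm38 and the tools StringTie, HISAT2, edgeR and CASAVA 1.8 are named in the submitters' processing notes without their roles, and no source used here gives the annotation release or strand setting. Of 28999 genes, 28923 were found in GENCODE M21, 28659 with the same coordinates, among them all 10 genes described.

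Counts of all 12 libraries entered 1 fit with a mean per group in edgeR 4.0.16 (R 4.3.3), with TMM scaling and edgeR's default filter on low counts, which kept 16319 genes. The quasi-likelihood test was used, with Benjamini-Hochberg adjustment over all genes tested and a threshold of 0.05. CPM are counts scaled to TMM-adjusted library size. Log2 ratios of mean FPKM were an alternative to the fitted changes, and levels between genes were set per kilobase of exons because the FPKM divided by another length. Groups and replicate numbers came from the sample titles. The alternatives were DESeq2's size factors, the DESeq2 1.42.0 test, no filter, the replicate number as a block, a fit on only the 6 libraries of a comparison, a required 2-fold change, a stricter adjusted p of 0.01 and each library left out in turn. The procedure was also run on counts simulated from its own fitted levels and dispersions. Those simulated libraries were independent, so that run says nothing about replicates that may be technical.

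The 10 genes, the pathway lists and the marker lists were chosen with earlier results of these data known, so their directions are not independent evidence. Of each pathway list all genes were counted, and up to 4 with the smallest p in a comparison could be named. The sum of Tlr1 and Tlr6 was added after seeing the data, and single marker genes are examples. Figures were drawn with matplotlib 3.10.9 in Python 3.11.15.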

Additional observations from a re-analysis of the deposited data

Results flagged for a closer look

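The response to 5-FU differed between the genotypes for 4 of the 10 genes, by the interaction term of edgeR's quasi-likelihood test. The difference, Trim47-/- minus WT, was log2 3.03 for Tlr2 (adjusted p = 2.47e-11), 2.82 for Tlr9 (5.64e-06) and 2.24 for Cd14 (6.24e-07), where each was higher after 5-FU in 3 of 3 Trim47-/- libraries than in any untreated one. It was log2 -0.77 for Irak3 (adjusted p = 0.00127, 6.66e-05 to 0.00395 over its alternatives). An interaction passed for 54.9% of all genes tested, so these 4 stand among many. No test for an outlying library was run in groups of 3. The spread of Tlr4, up to 13.8-fold within a group, and of Tlr7 stands out among genes of like level.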

How the results depend on the processing

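Of the 10 genes, 5, 3, 7, 6 and 4 passed for genotype after 5-FU, genotype without treatment, 5-FU in Trim47-/- cells, 5-FU in WT cells and the interaction. Leaving out each library in turn gave 4 to 5, 3 to 3, 7 to 7, 4 to 6 and 4 to 5, and for the 52 pathway genes 34 to 39, 22 to 28, 35 to 41, 33 to 37 and 37 to 39. With the replicate number as a block, 4, 3, 7, 5 and 4 genes and 38, 26, 39, 36 and 40 pathway genes passed. No pairing by number was seen. Same-numbered libraries correlated at -0.117 to 0.0844 in their deviations from group means, with 0 of 18 pairs over 0.1. Of the 12 libraries, 4 correlated best with their own number. Where replicates differ little beyond counting noise, such a check cannot exclude a pairing. Requiring a 2-fold change left 9, 5, 12, 18 and 13 pathway genes (39, 26, 40, 36 and 39 without it) and 1 of the 10 genes for 5-FU in WT cells, where an adjusted p under 0.01 left 2. The calls of Tlr2, Tlr9 and Cd14 for genotype, for 5-FU in Trim47-/- cells and for the interaction held under every alternative run except that the untreated difference of Cd14 did not reach 2-fold. The signs that turned belonged to differences that had not passed. With 1 library left out they ran from -0.112 to 0.143 for Myd88, -0.582 to 0.264 for Tlr7, -1.33 to 0.562 for Tlr4 and -0.225 to 0.104 for Tlr6 in the interaction. For genotype after 5-FU they ran from -0.0980 to 0.725 for Tlr7 and -0.106 to 0.0710 for Tlr1. For 5-FU they ran from -0.504 to 0.106 for Tlr7 in Trim47-/- cells, and in WT cells from -0.382 to 0.281 for Tlr7, -0.408 to 0.282 for Tlr3 and -1.05 to 0.845 for Tlr4. The interaction of Myd88 was also 0.0111 with DESeq2's size factors and 0.0111 in its test, and 5-FU in WT cells gave 0.0186 for Tlr3 from the ratio of mean FPKM. The cause was not tested. Depth limits Tlr3 and Tlr1, whose counts per library were few.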
